A study of Mus musculus with 2 samples.

Results

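The genes described here encode the machinery that attaches chromosomes to the mitotic spindle. They are the 38 records of the expression table whose symbol begins with Cenp and a further letter, or is one of 20 listed subunits of the Ndc80, Mis12, Knl1 and RZZ complexes, the spindle checkpoint and the shugoshins, out of 23746 records in all. RNA sequencing gave 1 library per genotype from medulloblastoma, a tumour of the mouse cerebellum that here formed after activation of Hedgehog signalling. Both genotypes carried CAG-CreER, a tamoxifen-dependent Cre recombinase under a broadly active promoter, and Rosa26-SmoM2, an activated Smoothened, and both were given 10 injections of tamoxifen on alternate days. The library labelled Brg1+/+ is called wild type below and the library labelled Brg1F/F, whose Brg1 alleles are floxed, is called knockout. No age, and no pooling of animals, is stated in the labels. RNA was made from dissected tumour, so cells other than tumour cells can be included.

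At each centromere a nucleosome with the histone H3 variant CENP-A marks the site where the kinetochore is built. A group of CENP proteins, the constitutive centromere-associated network, sits on this chromatin through the cell cycle. In mitosis it recruits the Knl1, Mis12 and Ndc80 complexes, of which Ndc80 holds the spindle microtubules. Kinetochores without microtubules produce the checkpoint signal that holds back anaphase, and shugoshins protect the cohesin that joins sister centromeres until then. Many of these genes are transcribed mainly in dividing cells, with a peak in G2 and mitosis, and in the cerebellum the granule neuron precursors are the cells that divide most after birth.

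Levels are FPKM, fragments scaled to transcript length and to the total of mapped fragments. Each difference is the log2 ratio of knockout to wild type after adding 1 FPKM to both values, and a gene was counted as lower or higher when the difference was at least 2-fold on that scale. Where 2 levels follow a gene's name, the wild-type library comes first. Each genotype has a single library, so nothing could be tested or checked between replicates, and animal and genotype cannot be told apart. The files give no counts, so the depth of the libraries is unknown. Smarca4, the gene of Brg1, had 14.05 FPKM in the wild type against 3.76 FPKM in the knockout, 26.8% of the wild-type value. Xist had 268.3 and 0.369 FPKM and the Y-linked Ddx3y had 0.00687 and 25.1 FPKM, so the wild-type library had the expression of a female and the knockout library that of a male.

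The centromere, kinetochore and checkpoint genes were lower in the knockout library as a group. All 38 had at least 1 FPKM in both libraries. The knockout library had the lower value for 36 of them, and 30 were at least 2-fold lower, against 8.67% of the 13279 records with at least 1 FPKM in 1 or both libraries. None (0) was at least 2-fold higher, against 16.1% of all records tested. The median log2 ratio was -1.51, where that of all records was 0.09 with an interquartile range from -0.41 to 0.68. The median level went from 14.4 FPKM in the wild-type to 4.78 FPKM in the knockout library, and the median gene kept 30.7% of its wild-type value. At the low end 3 genes were past 4-fold, against 1.5% of all records tested, and the lowest ratio was that of Spc24 at -2.10. Levels kept much of their order, with a Spearman correlation of 0.72 between the libraries over the 38 genes, which share their transcript lengths and annotation in both.

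Most markers of other cells were higher in the knockout library. Of 7 Purkinje cell markers all were higher in the knockout library, with a summed level of 11.2 FPKM in the wild type against 695.2 FPKM in the knockout. The sum of 7 oligodendrocyte markers went from 60.4 to 681.4 FPKM, with all 7 higher, and that of 7 astrocyte and Bergmann glia markers from 408.2 to 2369.1 FPKM, again with all 7 higher. Of 7 markers of mature granule neurons 6 were higher, with sums of 119.0 and 515.1 FPKM, and of 7 microglial markers 6, with sums of 29.2 and 89.5 FPKM. Of 6 tested endothelial markers 3 were higher, with sums of 34.4 and 131.4 FPKM that came mostly from Ly6c1 (10.2 and 66.5 FPKM) and Slc2a1 (10.3 and 42.5 FPKM). The marker list of Hedgehog-type tumour and granule neuron precursors went from 835.6 to 402.7 FPKM, with 6 of 11 lower and 0 higher. The part of this shift in the values below was not tested. In bulk tissue fewer dividing cells and less RNA of these genes per cell cannot be told apart.

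**Figure D1:**
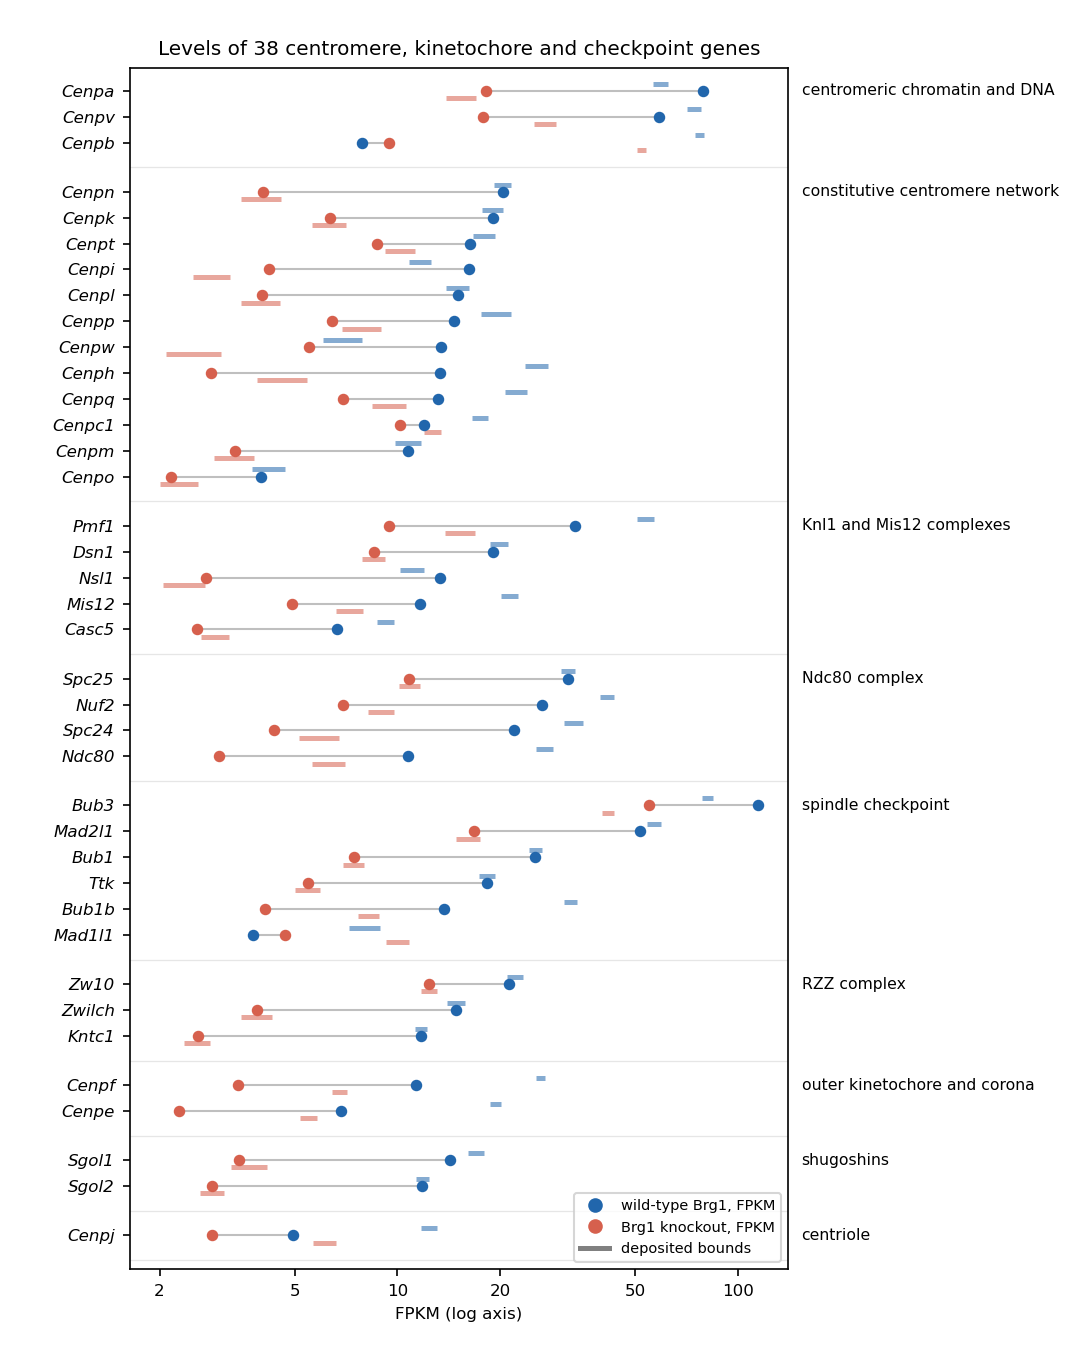
FPKM on a log axis for the 38 genes, ordered by role and then by wild-type level, with blue points for the wild-type and red points for the knockout library, and with bars for the lower and upper bounds deposited for each value. The red point lies to the left of the blue point for every gene except Cenpb and Mad1l1, and many points lie off their own bars, most clearly for Cenpb.

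The files also give a lower and an upper bound for each FPKM, but 25 of the 38 genes had an FPKM outside its own bounds in the wild type, and 23 of the 38 in the knockout. This was common in the whole table, with 6507 of the 13279 tested records in the wild type and 6794 in the knockout. In 1 or both libraries it held for 65.8% of the 38 genes and 57.5% of tested records. The bounds of the knockout library lay wholly below those of the wild type for 37 of the 38 genes, against 36.1% of all records tested. They lay wholly above for Mad1l1, as for 5526 of the 13279 records tested, and the bounds overlapped for only 2957 records. With the midpoints of the bounds in place of FPKM the count of lower genes was again 30, against 8.74% of the same records, and the median log2 ratio was -1.62. The membership of that count differed by a pair of genes. Bub3 left it (-0.96) and Cenpq entered it (-1.15). Among the 13 genes with both values within their bounds 11 were lower and 0 higher, against 6.89% lower of the 5648 records that meet the same condition.

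**Figure D2:**
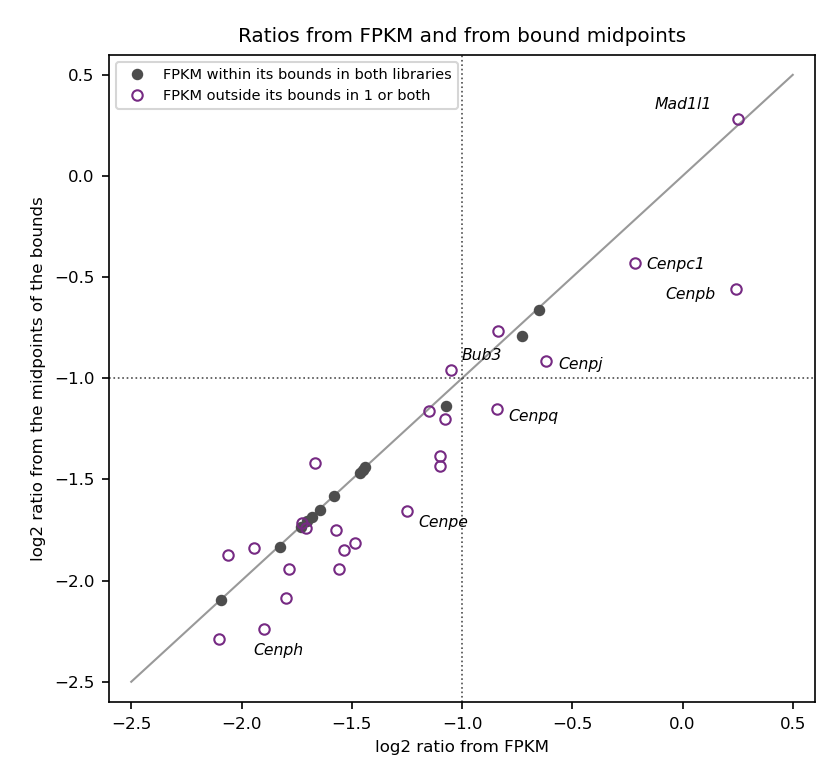
Log2 ratio of each of the 38 genes from FPKM (horizontal axis) and from the midpoints of the deposited bounds (vertical axis), with a diagonal where both are equal and dotted lines at 2-fold lower. Filled points, genes with FPKM within its bounds in both libraries, lie close to the diagonal, and Cenpb lies farthest from it, at 0.24 and -0.56.

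The promoters of genes that were lower together can be read beside their values. Of the 38 genes 35 had a promoter window in RefSeq, 250 bases before to 50 after the annotated start on mm10 (GRCm38), and Spc24, Nsl1 and Zwilch are not included. 3 kinds of sequence word known from cell cycle promoters were searched on both strands, namely TTTGAA, the cell cycle genes homology region or CHR, through which the DREAM complex represses and B-Myb and FoxM1 complexes activate G2 and mitotic genes, CCAAT, the box bound by NF-Y, and the E2F words TTTCCCGC, TTTGGCGC, TTTCGCGC and TTTGCCGC. The last 120 bases before the start are printed for 7 genes, with CHR and CCAAT matches in capitals. A CHR on the opposite strand reads TTCAAA and a CCAAT box on the opposite strand reads ATTGG. The first 4 have both words before the start, the next 2 have CCAAT boxes there and their CHR after the start, and Mad1l1, the gene with the highest ratio of the 38, has neither. The 7 genes were picked by hand and not by a rule. Lower genes with neither word, such as Nuf2 and Cenpv, are not printed. The stretches lie at chr8:116921620-116921739 (Cenpn, plus strand), chr5:123749606-123749725 (Kntc1, plus), chr10:30200541-30200660 (Cenpw, minus), chr7:131560250-131560369 (Bub3, plus), chr1:189688087-189688206 (Cenpf, minus), chr2:69206214-69206333 (Spc25, minus) and chr5:140321553-140321672 (Mad1l1, minus).
Cenpn: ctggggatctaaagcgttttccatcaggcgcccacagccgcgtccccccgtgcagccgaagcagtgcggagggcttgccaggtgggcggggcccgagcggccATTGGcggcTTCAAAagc
Kntc1: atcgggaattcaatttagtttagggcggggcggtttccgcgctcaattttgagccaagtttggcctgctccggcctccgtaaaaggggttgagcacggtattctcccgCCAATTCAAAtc
Cenpw: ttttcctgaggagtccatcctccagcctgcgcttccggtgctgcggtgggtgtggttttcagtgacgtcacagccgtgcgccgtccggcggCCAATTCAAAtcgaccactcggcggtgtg
Bub3: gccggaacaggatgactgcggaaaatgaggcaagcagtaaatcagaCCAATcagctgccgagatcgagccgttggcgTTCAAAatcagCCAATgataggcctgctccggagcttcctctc
Cenpf: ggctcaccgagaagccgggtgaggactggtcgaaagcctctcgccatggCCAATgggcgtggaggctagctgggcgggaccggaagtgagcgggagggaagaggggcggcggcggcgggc
Spc25: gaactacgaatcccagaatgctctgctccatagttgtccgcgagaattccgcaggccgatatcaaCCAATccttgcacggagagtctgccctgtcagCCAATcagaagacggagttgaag
Mad1l1: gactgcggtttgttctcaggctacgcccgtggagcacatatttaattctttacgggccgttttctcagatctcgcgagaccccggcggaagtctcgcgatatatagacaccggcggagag

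In Kntc1 and in Cenpw the CCAAT box and the CHR overlapped by 1 base, so that both promoters held the same composite of the 2 words. In Bub3 the CHR lay between a pair of CCAAT boxes, and in Cenpn the CCAAT box, on the opposite strand, came first. A CHR was found in 14 of the 35 windows (40.0%), against 17.9% of all 32851 promoter windows and 11.4% of the 10410 tested records with a window chosen in the same way, the one nearest to the start in the expression table. A CCAAT box was found in 22 of 35 (62.9%), against 37.4% of all windows and 38.8% of tested records. Both words together were in 11 of 35 (31.4%), against 6.95% and 4.76%. The E2F words were in 4 of 35 (11.4%), against 2.27% and 4.15%.

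Among the 27 genes at least 2-fold lower that had a window, 13 held a CHR and 20 a CCAAT box. Among the 8 within 2-fold, 1 held a CHR (Zw10) and 2 a CCAAT box (Cenpq and Cenpc1). The E2F words were in 3 of the 27 (11.1%) and 1 of the 8 (12.5%, Cenpb), too few matches to compare the groups. Most CHR matches lay close to the start. Within 50 bases of it, a distance chosen after the positions were seen, 11 of the 27 lower genes and 0 of the other 8 had one, against 4.94% of all windows and 2.85% of tested records. Since that distance was taken from these genes' own positions, the counts are a description only. Nuf2, Mad2l1, Cenpv and Cenpp had none of these words in their windows although they were lower, and the windows of Mad2l1, Cenpo and Cenpm lay 247, 329 and 411 bases from the start in the expression table. These matches are letters in a window and were not tested for binding.

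**Figure D3:**
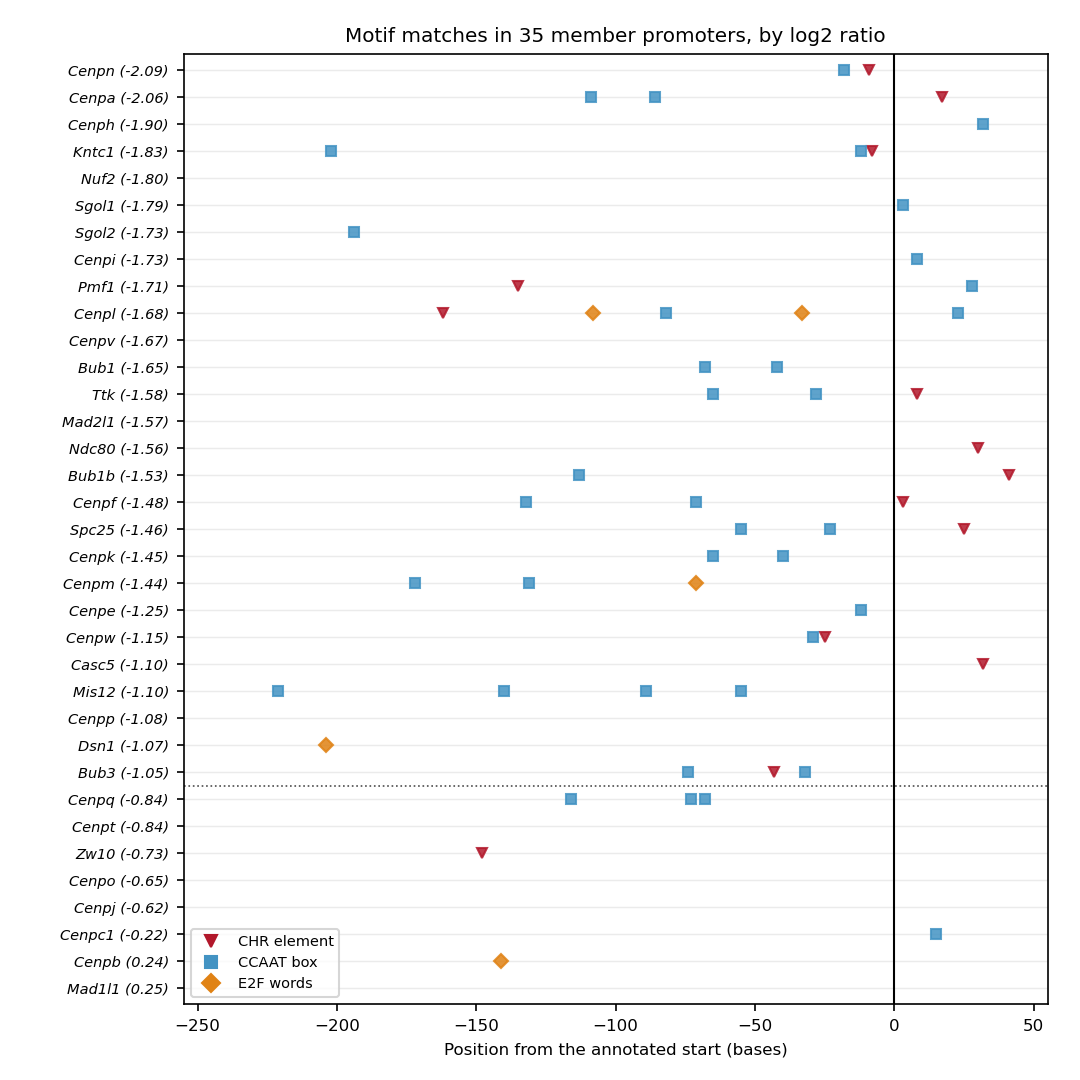
Positions of CHR, CCAAT and E2F words in the promoter windows of 35 genes, in bases from the annotated start, with genes ordered from the lowest log2 ratio at the top (ratios in brackets) and a dotted line between genes at least 2-fold lower and the rest. Each marker is at the left end of a match on either strand; red triangles gather near the start in the upper part, where 11 of 27 genes have one within 50 bases.

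Of the 3 genes of centromeric chromatin 2 were lower. Cenpa, which encodes the H3 variant itself (chromosome 5, 30666902 to 30674826, mm10), had 78.9 FPKM in the wild type against 18.1 FPKM in the knockout, 23.0% of the wild-type value (log2 ratio -2.06). Only Bub3 had a higher FPKM in the wild-type library, but the FPKM of Cenpa lay outside its bounds, and by bound midpoints Cenpb and Cenpv were above it too. Cenpv, a centromere-associated protein, had 58.7 and 17.8 FPKM (log2 ratio -1.67). Cenpb, whose protein binds a short box in satellite DNA, had no clear direction. Its FPKM was 7.84 in the wild-type and 9.46 in the knockout (log2 ratio 0.24). The deposited bounds ran from 74.7 to 79.6 and from 50.4 to 53.8, far above both values, and the midpoints gave -0.56. The record of the microRNA gene Mir3098, at 0 FPKM in both libraries, covers all 2724 bases of the Cenpb locus.

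The constitutive centromere network had 12 genes among the 38, of which 8 were lower and 0 higher (median -1.29). Cenpn, whose protein recognises the CENP-A nucleosome together with that of Cenpl, had 20.4 FPKM in the wild type against 4.02 FPKM in the knockout, the smallest remaining share of all 38 genes at 19.7% (log2 ratio -2.09). Cenpl had 15.01 and 3.99 FPKM (log2 ratio -1.68). Cenph, Cenpi, Cenpk and Cenpm, which encode 1 subcomplex, were all lower. Their levels were 13.3 and 2.84 FPKM for Cenph, 16.2 and 4.19 FPKM for Cenpi, 19.04 and 6.34 FPKM for Cenpk, and 10.8 and 3.33 FPKM for Cenpm, with log2 ratios of -1.90, -1.73, -1.45 and -1.44. Cenpi is on the X chromosome, and the libraries differed in sex.

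In the other branches of the network, the genes among the 38 were closer to the threshold. Of 4 network genes under other symbols, which are not among the 38, 3 were lower. These were Apitd1 (CENP-S) at -1.72, Itgb3bp (CENP-R) at -1.25 and Mlf1ip (CENP-U) at -1.13. Cenpt and Cenpw encode histone-fold partners, and the first gives the network its own link to the Ndc80 complex. Cenpt had 16.3 and 8.68 FPKM (log2 ratio -0.84) and Cenpw had 13.4 and 5.51 FPKM (-1.15). Cenpo, Cenpp and Cenpq encode parts of 1 subcomplex. Their values were 3.97 and 2.17 FPKM (log2 ratio -0.65), 14.6 and 6.41 FPKM (-1.08), and 13.2 and 6.92 FPKM (-0.84). The locus of Cenpp overlaps Aspn, Ecm2, Ogn and Omd, of which Ecm2, Ogn and Omd were higher by at least 2-fold in the knockout, and that of Cenpo overlaps Adcy3 and 2410017P09Rik. The locus of Zwilch overlaps Lctl. Whether strand was used in counting is not given, so these values are uncertain. Cenpc1, whose protein CENP-C joins the CENP-A nucleosome to the Mis12 complex, was the least different of the network, with 11.99 FPKM in the wild type against 10.2 FPKM in the knockout (log2 ratio -0.22). The same was seen from its bounds, with a midpoint ratio of -0.43.

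All 4 subunits of the Ndc80 complex, the microtubule grip of the kinetochore, were lower, with a median log2 ratio of -1.68. Spc24 (chromosome 9, 21755442 to 21760286), which with Spc25 forms the end that faces the centromere, had 21.9 FPKM in the wild type against 4.34 FPKM in the knockout (log2 ratio -2.10). Its partner Spc25 had 31.7 and 10.8 FPKM (-1.46). Nuf2 and Ndc80 form the end that faces the microtubule, with 26.5 and 6.91 FPKM (-1.80) and 10.7 and 2.98 FPKM (-1.56). The 4 FPKM values in the wild-type library spanned from 10.7 to 31.7 for proteins that assemble in equal number. That spread depends on the value used. The wild-type bound midpoints were closer together, with 32.9 for Spc24, 31.8 for Spc25, 41.3 for Nuf2 and 27.1 for Ndc80. The wild-type bounds of Ndc80, from 25.5 to 28.6, lay well above its FPKM.

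All 5 genes of the Knl1 and Mis12 complexes among the 38 were lower, but 3 of them only just. Zwint, which links Knl1 to the RZZ complex, is not among the 38. It was higher in the knockout library, with a log2 ratio of 1.10 from FPKM and 0.95 from the bound midpoints. Nsl1 and Pmf1, subunits of the Mis12 complex, had 13.4 and 2.73 FPKM (log2 ratio -1.95) and 33.2 and 9.45 FPKM (-1.71). The other subunits, Mis12 and Dsn1, had 11.6 and 4.89 FPKM (-1.10) and 19.02 and 8.51 FPKM (-1.07). Casc5, the gene of the scaffold Knl1 that carries the checkpoint proteins, had 6.66 and 2.57 FPKM (-1.10). After both libraries were scaled to an equal FPKM sum, Mis12, Dsn1 and Casc5 came to -0.95, -0.91 and -0.97 and only 2 of the 5 remained lower. From the bound midpoints the same 3 genes had -1.43, -1.14 and -1.38, and all 5 were lower.

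In the spindle checkpoint 5 of 6 genes were lower, and Mad1l1 was not. The kinase genes Bub1 and Ttk (Mps1), which start the signal at the kinetochore, had 25.4 FPKM in the wild type against 7.44 FPKM in the knockout (log2 ratio -1.65) and 18.3 and 5.46 FPKM (-1.58). Bub1b, whose protein BubR1 is part of the inhibitor of the anaphase-promoting complex, had 13.7 and 4.08 FPKM (-1.53). Mad2l1, the gene of the Mad2 protein that is converted into that inhibitor, had 51.7 and 16.7 FPKM (-1.57). These 4 genes kept between 29.3% and 32.4% of their wild-type values.

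The other 2 checkpoint genes, Bub3 and Mad1l1, kept larger shares, so that the list of 6 ran from 29.3% to 124.4%. Bub3, the adaptor that brings Bub1 and BubR1 to Knl1, had the highest FPKM of the 38 genes in both libraries, with 114.9 FPKM in the wild type against 54.96 FPKM in the knockout (log2 ratio -1.05, and -0.88 after scaling to an equal FPKM sum). Mad1l1, whose protein holds Mad2 at the kinetochore, had 3.75 FPKM in the wild type against 4.67 FPKM in the knockout (log2 ratio 0.25). Its bounds, from 7.19 to 8.91 and from 9.23 to 10.8, did not overlap, as in most records tested, and gave a midpoint ratio of 0.28. Its FPKM was the lowest of the 38 genes in the wild-type library, but it lay below its bounds there, and by midpoints Cenpo and Cenpw were lower. By midpoints, too, Cenpb was above Bub3 in the knockout library.

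The RZZ complex brings the motor dynein and the Mad1 and Mad2 proteins to kinetochores without microtubules. Its genes Kntc1 and Zwilch were lower, with 11.8 FPKM in the wild type against 2.60 FPKM in the knockout (log2 ratio -1.83) and with 14.9 and 3.88 FPKM (-1.70). Zw10, whose protein also acts in membrane traffic between the endoplasmic reticulum and the Golgi apparatus, had 21.2 and 12.4 FPKM (-0.73). The corona genes Cenpe, a kinesin that carries chromosomes to the spindle equator, and Cenpf, a large microtubule-binding protein, had 6.81 and 2.29 FPKM (-1.25) and 11.3 and 3.41 FPKM (-1.48). Both were lower, and for both the bounds lay above the FPKM in each library.

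Both shugoshin genes were lower, with a median log2 ratio of -1.76. Sgol1, the main protector of cohesin in mitosis, had 14.3 FPKM in the wild type against 3.43 FPKM in the knockout (log2 ratio -1.79). Sgol2 had 11.8 and 2.86 FPKM (-1.73), but the GENCODE annotation also holds a second locus of this family, Sgo2b, and how reads shared between them were counted is not given. Cenpj carries the name of the family but encodes a protein of centriole growth. It had 4.93 and 2.86 FPKM (-0.62) and was within 2-fold.

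A list of 13 of these genes whose transcripts are known to peak in G2 or mitosis was lower throughout. The list was drawn up with earlier results of these data known, so its contrast with the other 25 genes is a description only. All 13 were at least 2-fold lower, with log2 ratios from -2.06 (Cenpa) to -1.10 (Casc5) and a median of -1.57, and 12 of 13, without Casc5, were lower after scaling to an equal FPKM sum. Of the other 25 genes 17 were lower (median -1.15). The 8 genes within 2-fold, namely Cenpq, Cenpt, Zw10, Cenpo, Cenpj, Cenpc1, Cenpb and Mad1l1, were all outside that list. So were some of the lowest ratios, among them Spc24 (-2.10), Cenpn (-2.09) and Nsl1 (-1.95). From the bound midpoints the medians were -1.75 for the 13 genes and -1.42 for the other 25. For comparison, 8.67% of all records tested were lower. All 8 general genes of dividing cells were lower with a median of -2.02, and 11 of 12 genes of S phase with a median of -1.79. Among them Mki67 had 40.8 and 10.2 FPKM, Top2a had 51.6 and 21.0 FPKM, and Pcna had 320.7 and 121.1 FPKM, of which Mki67 kept the smallest share of its wild-type value.

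Genes that work beside the kinetochore, taken from lists of 56 symbols of which 52 were tested, were divided by function. Of the 52, 22 were lower and 1 higher, with a median log2 ratio of -0.70. Of all records tested, beside which each list below can be read, 8.67% were lower and 16.1% higher, with a median of 0.09. Genes of CENP-A deposition were among the lower ones. Hjurp, the chaperone that carries CENP-A, had 21.3 FPKM in the wild type against 3.25 FPKM in the knockout (log2 ratio -2.39), and Oip5, part of the complex that licenses the site, had 17.5 and 5.14 FPKM (-1.59). Of 4 centromere network genes under other symbols 3 were lower, Apitd1 (CENP-S) with 6.96 and 1.42 FPKM, Itgb3bp (CENP-R) with 13.3 and 5.01 FPKM and Mlf1ip (CENP-U) with 4.72 and 1.62 FPKM.

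All 5 genes of the chromosomal passenger complex and its recruitment, which correct wrong attachments, were lower (median -1.63). Birc5 (survivin) had 64.7 FPKM in the wild type against 13.1 FPKM in the knockout (log2 ratio -2.22), the kinase gene Aurkb had a log2 ratio of -2.59, and the scaffold gene Incenp and Cdca8 (borealin) had -1.63 and -1.49. Of 9 tested genes of the Ska complex and of kinetochore adaptors and motors 3 were lower and 1 higher. The lower ones were Ska1 (8.94 and 1.63 FPKM), the microtubule depolymerase Kif2c (16.9 and 5.64 FPKM) and the kinesin Kif18a (9.82 and 3.52 FPKM). Zwint, which links Knl1 to the RZZ complex and is also known as a partner of the synaptic protein Snap25, went the other way, with 14.03 and 31.3 FPKM (log2 ratio 1.10, and 0.95 from the bound midpoints).

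The anaphase machinery was divided. Among 17 genes of checkpoint silencing and of the anaphase-promoting complex 4 were lower and 0 higher (median -0.43). These were Ube2c and Ube2s, which supply ubiquitin to the complex (log2 ratios -2.87 and -1.51), its activator Cdc20 with 55.2 and 12.04 FPKM (-2.11), and Trip13, which takes the checkpoint inhibitor apart, with 17.3 and 3.78 FPKM (-1.94). The core subunits lay within 2-fold. Among 14 genes of cohesin and separase 4 were also lower and 0 higher (median -0.14). The protease separase (Espl1) had 17.6 and 2.87 FPKM (-2.27), sororin (Cdca5) 19.6 and 3.37 FPKM (-2.23), the acetyltransferase Esco2 24.9 and 5.96 FPKM (-1.90), and securin (Pttg1) 90.6 and 38.9 FPKM (-1.20). The ring subunits of cohesin, Smc1a, Smc3 and Rad21, had log2 ratios of -0.03, -0.25 and -0.31 from FPKM. Their FPKM lay outside the bounds in both libraries, and the midpoints gave -0.30, -0.55 and -0.78.

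**Figure D4:**
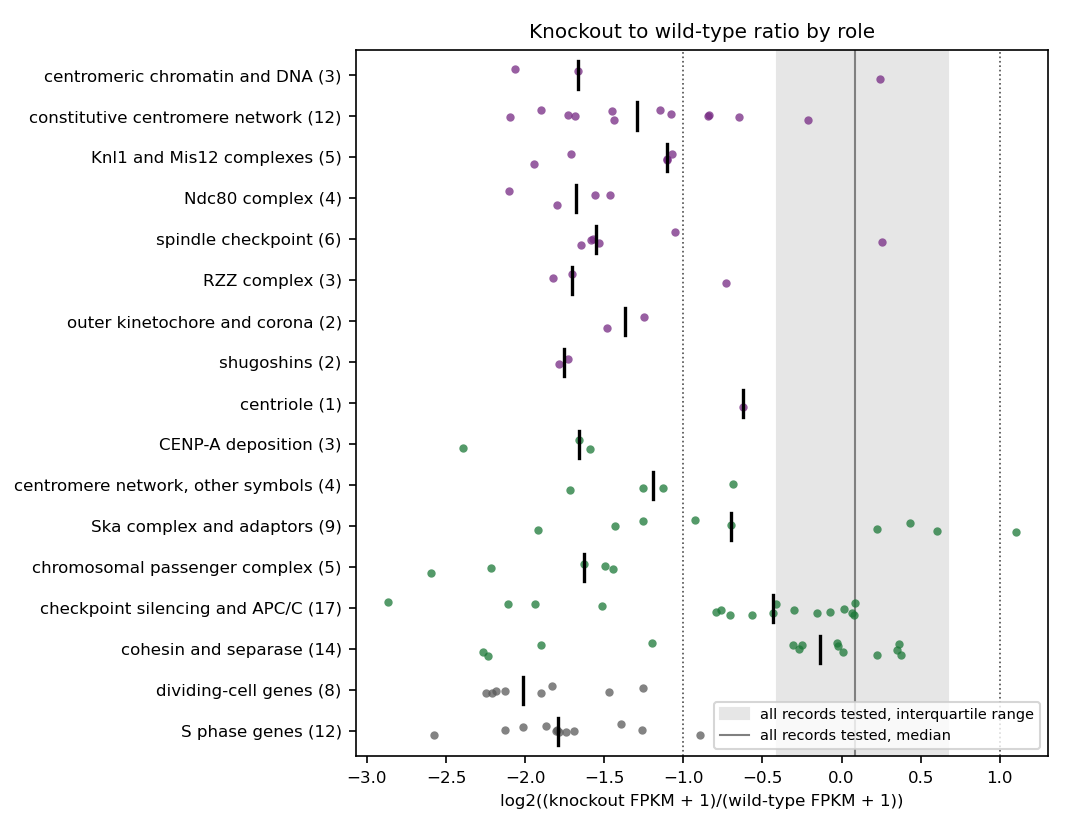
Log2 ratio of knockout to wild type for each gene (points) by role, with the number of genes in brackets and a black bar at the median of each row; purple rows are the 38 genes, green rows other genes of the pathway and grey rows general cell cycle genes. The grey band is the interquartile range of all records tested (-0.41 to 0.68), dotted lines mark 2-fold, and most purple points lie left of -1 while the cohesin and anaphase-promoting complex rows spread on both sides of it.

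The 38 genes were spread over 16 chromosomes. Chromosome 2 held 6 of them (Bub1, Bub1b, Casc5, Cenpb, Dsn1 and Spc25) and chromosome 1 held 5 (Cenpf, Cenpl, Nsl1, Nuf2 and Sgol2). The span of the locus and the log2 ratio had a Spearman correlation of 0.04 across the 38 genes.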

How the data were processed

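RNA was measured in 2 tumour libraries, 1 per genotype. Per the file headers, the authors deposited 1 FPKM value for each gene and locus, with confidence bounds and a status flag. Cuffdiff 2.1.1 and mm10 appear, with no role, in the submitters' processing notes. For the aligner, annotation, filters and bound calculation, the method is not given in the sources used here. Total counts are not in the files used, so depth and precision are unknown. Records were joined by symbol and locus. Starts in the files count from 0 (71.5% of 5245 plus-strand records matched a RefSeq start when counted this way, 0.324% when counted from 1), and coordinates are printed from 1. Log2 ratios used a pseudocount of 1 FPKM, which understates changes of low genes, on records of at least 1 FPKM in 1 or both libraries. A fixed rule of 2-fold took the place of a test. All 38 genes may be named, of each pathway list up to 4 past 2-fold in order of size, and Smarca4, Mki67, Top2a and Pcna. The ring subunits of cohesin, the sex-linked genes, Ly6c1, Slc2a1 and genes that overlap a locus were named after their values were seen. The genes and lists were chosen with earlier results of these data known. The ratio code was tested on simulated data. Scripts ran in Python 3.11.15 with pandas 2.3.3 and numpy 2.4.6, and plots were drawn with matplotlib 3.10.9. Other pseudocounts, scalings, filters and thresholds, and the midpoints of the bounds, were tried as alternatives. The values of 1 gene of the pathway lists are not reported here.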

Additional observations from a re-analysis of the deposited data

How the results depend on the processing

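With 1 library per genotype no library could be left out. No paired analysis was possible because each genotype has 1 library. The count of 30 lower genes among the 38 was 24 when both libraries were scaled to an equal FPKM sum, which moved the median log2 ratio of all records from 0.09 to 0.25; Bub3, Casc5, Cenpp, Cenpw, Dsn1 and Mis12 then lay within 2-fold, and 6.6% of all records tested were lower. The count was 35 at a 1.5-fold threshold, where 18% of all records were lower, and 3 at a 4-fold threshold, where 1.5% were. It was 11 of 13 among genes whose FPKM lies within its bounds (6.89% of all such records), a choice made once the data had been seen. The count was 30 under the other 10 settings, which changed the pseudocount, the scaling, the filter, the status or the loci, or used bound midpoints. The median log2 ratio of the 38 genes lay between -1.68 (pseudocount of 0.1 FPKM) and -1.37 (libraries scaled to an equal FPKM sum), and their mean in the main setting was -1.33. Of the pathway genes, 22 lower and 1 higher, 7 were lower and 0 higher at 4-fold, 2 were higher at 1.5-fold, 0 were higher from bound midpoints, and 8 of 17 were lower and 0 higher among those within their bounds. The direction of Cenpb was reversed by the bound midpoints (-0.56). The cause of these differences was not tested, apart from the fewer genes that a stricter threshold or filter leaves. Small differences in low genes cannot be read at an unknown depth.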
